A study of Homo sapiens with 2 samples.

Results

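Intermediate-CpG promoters are the promoters whose CpG content lies between that of the CpG islands of housekeeping genes and that of the CpG-depleted promoters of many tissue-specific genes. They were chosen here by sequence alone, with no measured value in the rule. The start of every MANE Select transcript (the representative transcript of a protein-coding gene) on the 22 autosomes was taken from GENCODE release 44 lifted to hg19, and the hg19 sequence from -500 to +500 bp around it was examined. A promoter was a member when its ratio of observed to expected CpG was at least 0.48 and it was not both at least 0.75 in that ratio and at least 55% in GC content. This gave 5401 of 18069 promoters (29.9%), against 7913 CpG-rich and 4755 CpG-poor promoters. A member was measured when at least 5 CpG cytosines of its window had at least 5 reads in both libraries. Of the 5401 members, 5129 (94.96%) were measured and 272 were not, so every share below is over 5129 promoters unless another number is given. Of these, 4640 had a ratio under 0.75, and 489 had a higher ratio with a GC content under 55%.

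The study measured DNA methylation with MCC-Seq, in which bisulfite treatment turns unmethylated cytosines into bases sequenced as thymine while methylated ones stay cytosine, and the treated DNA is enriched with capture probes. SKNO-1 is an acute myeloid leukemia cell line with the RUNX1-RUNX1T1 fusion (AML1-ETO in the labels) of the t(8;21) translocation. SKNO1-siAE is SKNO-1 infected with a lentiviral vector, pRRLcPPT.hPGK, that encodes siAGF1 oligonucleotides against the fusion transcript. The comparison asks how promoter methylation differs when the fusion is silenced. Both lines were grown in the same medium, each gave 1 library, and whether SKNO1-siAE is a single clone is not given in the sources used here. With 1 library per cell line, a difference between the libraries has no replicate check and no test of the condition, and infection, culture and silencing cannot be told apart. The libraries held 83620068 site reads over 4713346 sites in SKNO-1 and 82164216 over 4694016 sites in SKNO1-siAE. The members held 252142 of the sites measured in both, with a median of 51 sites per promoter and a median depth per site of 16 reads in SKNO-1 and 15 in SKNO1-siAE.

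In mammalian cells, methyl groups are placed on the cytosine of CpG dinucleotides on both strands. Methylated cytosine mutates readily to thymine, and regions that stayed unmethylated in the germline have kept more of their CpGs. A dense methylated promoter is usually silent, an unmethylated CpG-dense promoter can be active or inactive, and CpG-poor promoters are often methylated whether or not they are used. The intermediate group contains genes of every kind, among them zinc finger, germline and protocadherin genes, and methylation of such promoters is known to vary between cell types and in leukemia.

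The sequences below show what the classes look like and which promoters differed most between the libraries. Each is the 300 bases directly upstream of the start in hg19 (GRCh37), written 5′ to 3′ in the direction of the gene, with every CpG in capitals. The first group holds, for each class, the promoter nearest to the class median of the observed to expected ratio. The stretch of NT5DC1, a CpG-rich promoter (chr6:116421716-116422015, + strand), held 35 CpGs. That of CIR1, an intermediate-CpG promoter (chr2:175260441-175260740, - strand), held 23. That of CHD3, a CpG-poor promoter (chr17:7791807-7792106, + strand), held 10.
NT5DC1: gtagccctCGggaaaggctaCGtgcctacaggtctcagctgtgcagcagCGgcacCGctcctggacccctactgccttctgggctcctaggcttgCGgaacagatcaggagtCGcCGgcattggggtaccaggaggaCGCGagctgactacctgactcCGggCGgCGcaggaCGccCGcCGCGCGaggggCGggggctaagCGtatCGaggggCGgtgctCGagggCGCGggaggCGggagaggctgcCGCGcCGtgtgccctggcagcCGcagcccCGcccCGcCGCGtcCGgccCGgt
CIR1: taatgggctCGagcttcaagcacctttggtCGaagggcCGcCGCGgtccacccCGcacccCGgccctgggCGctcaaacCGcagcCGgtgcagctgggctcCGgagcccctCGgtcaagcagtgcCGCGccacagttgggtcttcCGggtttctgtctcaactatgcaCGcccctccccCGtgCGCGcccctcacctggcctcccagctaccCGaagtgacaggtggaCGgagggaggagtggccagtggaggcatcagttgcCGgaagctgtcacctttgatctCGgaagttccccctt
CHD3: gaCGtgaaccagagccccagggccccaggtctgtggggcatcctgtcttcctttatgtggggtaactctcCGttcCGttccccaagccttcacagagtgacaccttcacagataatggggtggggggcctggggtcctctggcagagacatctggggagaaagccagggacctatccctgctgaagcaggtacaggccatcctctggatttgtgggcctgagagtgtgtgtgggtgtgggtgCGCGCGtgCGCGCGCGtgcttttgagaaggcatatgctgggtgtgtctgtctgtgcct

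The other group holds members among those with the largest differences between the libraries. The level was higher in SKNO-1 in TMEM144 (chr4:159131338-159131637, + strand, 13 CpGs) and ZNF510 (chr9:99540370-99540669, - strand, 17 CpGs). It was lower in SKNO-1 in C17orf58 (chr17:65992586-65992885, - strand, 8 CpGs) and C1orf56 (chr1:151019927-151020226, + strand, 18 CpGs).
TMEM144: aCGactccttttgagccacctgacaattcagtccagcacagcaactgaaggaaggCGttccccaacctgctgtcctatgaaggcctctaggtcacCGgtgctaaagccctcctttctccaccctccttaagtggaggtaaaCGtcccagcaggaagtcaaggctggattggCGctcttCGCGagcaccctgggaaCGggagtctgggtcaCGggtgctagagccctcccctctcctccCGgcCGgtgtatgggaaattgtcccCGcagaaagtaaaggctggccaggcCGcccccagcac
ZNF510: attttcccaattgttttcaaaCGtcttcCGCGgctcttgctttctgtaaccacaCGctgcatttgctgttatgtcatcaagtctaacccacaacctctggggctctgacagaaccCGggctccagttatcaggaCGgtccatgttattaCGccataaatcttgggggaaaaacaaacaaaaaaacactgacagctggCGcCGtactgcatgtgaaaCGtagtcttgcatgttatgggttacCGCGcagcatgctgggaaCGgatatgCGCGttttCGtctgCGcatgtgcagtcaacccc
C17orf58: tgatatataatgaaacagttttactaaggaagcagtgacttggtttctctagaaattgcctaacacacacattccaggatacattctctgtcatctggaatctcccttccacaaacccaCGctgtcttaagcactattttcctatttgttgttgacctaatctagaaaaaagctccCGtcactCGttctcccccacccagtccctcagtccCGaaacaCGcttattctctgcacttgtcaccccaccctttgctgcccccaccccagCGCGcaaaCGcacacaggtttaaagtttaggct
C1orf56: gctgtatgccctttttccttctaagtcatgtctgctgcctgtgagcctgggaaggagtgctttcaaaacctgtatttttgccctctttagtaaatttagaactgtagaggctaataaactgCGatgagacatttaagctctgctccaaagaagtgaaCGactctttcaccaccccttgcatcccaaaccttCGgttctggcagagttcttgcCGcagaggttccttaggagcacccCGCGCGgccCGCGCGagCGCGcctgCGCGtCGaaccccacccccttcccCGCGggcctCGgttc

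In these stretches alone, the 34 measured cytosines of ZNF510 averaged 0.992 in SKNO-1 against 0.00420 in SKNO1-siAE. In the CIR1 stretch the 46 measured cytosines averaged 0.00787 against 0.00125.

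The methylation level of a cytosine was its methylated reads over all of its reads, and the level of a promoter was the mean over its measured cytosines. A promoter was called unmethylated under 0.1, methylated over 0.8 and partly methylated in between. Most members were unmethylated. In SKNO-1, 3100 (60.4%) were unmethylated, 1251 (24.4%) partly methylated and 778 (15.2%) methylated. In SKNO1-siAE, 2856 (55.7%) were unmethylated, 985 (19.2%) partly methylated and 1288 (25.1%) methylated. The median promoter had a level of 0.0292 in SKNO-1 and 0.0494 in SKNO1-siAE, while the mean was 0.256 and 0.322, a mean difference of -0.0662. The medians lay between those of the CpG-rich promoters (0.00927 and 0.0102) and those of the CpG-poor promoters (0.629 and 0.748). The state was the same in both libraries for 2683 unmethylated (52.3%), 672 methylated (13.1%) and 604 partly methylated (11.8%) members. The most frequent changes of state, read from SKNO-1 to SKNO1-siAE, were from partly methylated to methylated in 498 members and from unmethylated to partly methylated in 299. A full change was seen from unmethylated to methylated in 118 members and from methylated to unmethylated in 24.

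A difference, always SKNO-1 minus SKNO1-siAE, was called when it was at least 0.2 in size and the 95% Newcombe interval of the difference of pooled reads left out 0. These intervals cover counting error only, and they are too narrow, since a read pair can cover several CpGs and the reads carry no molecular identifiers. By this rule 161 members (3.14%) were higher in SKNO-1, against 3.37% of all 15786 autosomal promoters measured, and 691 (13.5%) were lower, against 14.2%. At a difference of at least 0.5, 64 members (1.25%) were higher, against 1.17% of all promoters, and 337 (6.57%) were lower, against 5.69%. The members thus differed about as often as all promoters did. The difference was at least 0.9 in 12 members that were higher and 56 that were lower. At the other end, 3303 members (64.4%) differed by less than 0.05. The CpG-rich promoters had 193 higher (2.62%) and 789 lower (10.7%), and the CpG-poor promoters 178 higher (5.43%) and 754 lower (22.98%). At a difference of 0.5 the order was another one, with 416 (5.64%) of the CpG-rich and 145 (4.42%) of the CpG-poor promoters lower in SKNO-1. These shares are descriptions of 2 libraries, and promoters of a library are not replicates.

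As a measure of the spread within a library, the strands were compared. The cytosines of a CpG on the + and the - strand are usually in the same state, and each strand gives its own reads. The mean of a strand was taken over all of its measured sites, which need not belong to the same CpGs as those of the other strand. The strand shares can therefore also hold differences between positions, while the libraries were compared over the same sites. Among the 4527 members with at least 5 sites on each strand, the + and - strand differed by 0.2 or more, with an interval that left out 0, in 310 (6.85%) within SKNO-1 and in 231 (5.10%) within SKNO1-siAE. By the same rule the libraries differed in 746 (16.5%) on the + strand and in 727 (16.1%) on the - strand. At 0.5 the strands differed in 40 (0.884%) and 38 (0.839%), and the libraries in 332 (7.33%) and 348 (7.69%). The 324 of these members that were called at 0.5 were chosen by both strands together, which makes a shared direction likely, and 324 had the same direction on both strands and 248 a difference of at least 0.5 on both. The strand comparison does not cover variation between cultures or between library preparations.

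The methylation of the members varied with where they lay between the classes. From the lowest ratios (0.48 to 0.55, 419 members) to the highest (0.75 or more, 489 members), the median level fell from 0.481 to 0.00862 in SKNO-1 and from 0.692 to 0.00762 in SKNO1-siAE. In between, it was 0.0866 against 0.179 at ratios of 0.55 to 0.65, and 0.0177 against 0.0260 at 0.65 to 0.75. The share called lower in SKNO-1 was 18.9%, 15.8%, 13.0% and 5.11% from the lowest to the highest of these 4 ranges, and the share called higher was 4.30%, 3.44%, 2.85% and 3.07%. The highest range holds only members under 55% GC, so ratio and GC content change together there, and over all promoters with a ratio of 0.75 to 0.85 the share lower was 11.1%. Just outside the limit of 0.48 lay KLF17 (ratio 0.4795, levels 0.911 and 0.913) and SYT4 (0.4796, levels 0.660 and 0.552). Just inside lay RTP5 (ratio 0.48002, levels 0.716 and 0.870) and ASB5 (0.48023, levels 0.868 and 0.922).

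GC content went along with a different pattern. The share called lower in SKNO-1 was 12.3% under 45% GC, 10.1% at 45 to 50%, 8.52% at 50 to 55% GC, 10.1% at 55 to 60%, 13.4% at 60 to 65%, 20.1% at 65 to 70% and 27.1% at 70% or more. In this last range 83 of 306 members were lower and 7 were higher, with medians of 0.0351 in SKNO-1 and 0.282 in SKNO1-siAE. Under 45% GC 8 of the 65 members were higher and 8 were lower. The depth moved with GC content, since the median over promoters of their median site depth fell from 29 reads in SKNO-1 and 30 in SKNO1-siAE under 45% GC to 10 in each at 70% or more. When sites needed 10 reads in place of 5, the share lower in SKNO-1 was 20.9% in place of 21.8% at 65% GC or more, and 9.38% in place of 9.04% under 55%.

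Along the window, members that were unmethylated in both libraries had their lowest levels next to the start. From -100 to -1 bp the mean over promoters was 0.00430 in SKNO-1 and 0.00405 in SKNO1-siAE, and from -500 to -401 bp it was 0.109 and 0.119. Members methylated in both were highest from 0 to 99 bp, at 0.924 and 0.939. Partly methylated members dipped at the start, from 0.608 and 0.681 at -500 to -401 bp to 0.277 and 0.329 at -100 to -1 bp. The 337 members that were lower in SKNO-1 by 0.5 had this dip in SKNO-1, with 0.365 at -500 to -401 bp, 0.0467 at -100 to -1 bp and 0.225 at 400 to 500 bp. In SKNO1-siAE the same promoters were even, between 0.795 and 0.859. The 64 members higher by 0.5 had the dip in SKNO1-siAE, from 0.410 to 0.0505, and lay between 0.725 and 0.854 in SKNO-1. The direction in these sets was fixed by how they were chosen, and only the shape along the window is a description.

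The sides of the start were also compared in members called at 0.5, where the choice by the whole window makes a difference on both sides likely. Of the 249 members lower by 0.5 with at least 5 sites on each side of the start, 235 differed by at least 0.2 both upstream and downstream, 7 only upstream and 7 only downstream, and 169 by at least 0.5 on both sides. Of the 49 such members higher by 0.5, 44 differed by at least 0.2 on both sides, 3 only upstream and 2 only downstream, and 31 by at least 0.5 on both sides. In SKNO-1, 78.3% of the sites of the lower set were under 0.1 and 5.47% over 0.8, and in SKNO1-siAE 3.86% were under 0.1 and 76.7% over 0.8.

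The promoters with the largest increases in SKNO-1 were nearly complete switches. ADAMTS1, a secreted metalloprotease, had a level of 0.973 in SKNO-1 and 0 in SKNO1-siAE over 14 sites. In SKNO-1, 307 of its 319 reads, summed over sites, were methylated (0.962, 95% Wilson interval 0.935 to 0.978), and in SKNO1-siAE 0 of 106. If the reads of all sites were independent, 0 of 106 would allow a level of up to 0.0283. A read pair can cover several sites, so the true limit is higher. The sites of ADAMTS1 had a median of 29.5 reads in SKNO-1 against 6.5 in SKNO1-siAE. All 14 of its sites lay on the - strand, between -20 and 234 bp. TMEM144, a transmembrane protein, had 0.976 against 0.00782 over 52 sites, with 990 of 1024 and 8 of 923 reads methylated, and every site was higher in SKNO-1.

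ZNF510, ZNF814 and ZNF20, which encode zinc finger proteins, had 0.993, 0.978 and 0.966 in SKNO-1 and 0.0248, 0.0129 and 0.0184 in SKNO1-siAE. In each of them every site, 57, 52 and 56 in turn, was higher in SKNO-1. MAP10, a microtubule-associated protein, had 0.978 against 0.0229, and 75 of its 76 sites were higher.

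The promoters with the largest decreases in SKNO-1 were as complete. C17orf58, an open reading frame of unknown function, had 0 of 210 reads methylated in SKNO-1 and 285 of 286 in SKNO1-siAE (0.997, 95% Wilson interval 0.980 to 0.999). If the reads of all sites were independent, 0 of 210 would allow a level of up to 0.0143. The median depth of its sites in SKNO-1 was 9 reads. BST1 encodes a surface ADP-ribosyl cyclase of myeloid and bone marrow stromal cells, and 4 of 521 reads were methylated in SKNO-1 against 369 of 370 in SKNO1-siAE. C1orf56 had 3 of 1155 against 1518 of 1544 reads methylated.

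By the same rule followed IVD, the mitochondrial enzyme that oxidizes isovaleryl-CoA in leucine breakdown, and CHST13, a sulfotransferase of chondroitin. Their levels were 0.00804 and 0.0286 in SKNO-1 and 0.991 and 0.998 in SKNO1-siAE. Every site of C17orf58, BST1, C1orf56 and IVD was lower in SKNO-1, and in CHST13 54 of 55 were. Of the CHST13 sites, 54 lay on the + strand and 1 on the - strand, and only 2 lay upstream of the start. Beside these differences stands an uneven number of reads, since IVD had 1604 reads in SKNO-1 and 911 in SKNO1-siAE, and C1orf56 1155 and 1544. Over all members lower by 0.5, the median log2 ratio of reads in the promoter, SKNO-1 over SKNO1-siAE, was -0.17, against 0.14 in those higher by 0.5 and 0.03 in all members.

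UBXN8, the gene of the study, encodes a UBX-domain protein of the endoplasmic reticulum membrane. Its window around the start at 30601681 of chromosome 8 (+ strand) had a ratio of 0.625 and a GC content of 54.8%, and so falls in the intermediate class. Over 72 sites its level was 0.449 in SKNO-1 and 0.00364 in SKNO1-siAE. Pooled, 898 of 1881 reads were methylated in SKNO-1 (0.477, 95% Wilson interval 0.455 to 0.5) and 6 of 1331 in SKNO1-siAE (0.00451, interval 0.00207 to 0.00980), a difference of 0.473 with a Newcombe interval of 0.450 to 0.496. Unlike the promoters above, it was partly methylated in the library with the higher level, with sites from 0 to 1 in SKNO-1, 63 of 72 sites higher and 0 lower. In SKNO-1 the 31 cytosines of the + strand averaged 0.352 and the 41 of the - strand 0.522. As means over the window, the strands of this library thus differed by less than the libraries did. At some single CpGs downstream of the start the strands differed by more. The CpG at 205 and 206 bp had 0 on the + strand and 0.774 on the - strand in SKNO-1. The CpG at 0 and 1 bp had 0.595 and 0.607. The mean level was similar upstream (0.437) and downstream (0.466) of the start.

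Members that were partly methylated in both libraries held low, middle and high sites. Over the 604 such members, 47.8% of the sites were under 0.1 in SKNO-1, 24.9% were between 0.1 and 0.8 and 27.3% were over 0.8, and in SKNO1-siAE it was 41.4%, 26.01% and 32.6%. Of the 1216 members with at least 10 sites that were partly methylated in SKNO-1, 192 (15.8%) had at least 50% of their sites between 0.1 and 0.8, and 296 (24.3%) had at least 20% of their sites under 0.1 and at least 20% over 0.8. In SKNO1-siAE these were 140 (14.9%) and 230 (24.5%) of 940.

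The 4 members closest to 0.5 in both libraries had sites from 0 to 1 in each. MECOM, which encodes the transcription factor EVI1, had 0.491 in SKNO-1 and 0.486 in SKNO1-siAE over 36 sites. Its means were 0.514 against 0.389 over 27 sites upstream of the start and 0.420 against 0.778 over 9 sites downstream. They also differed by strand, with 0.467 against 0.764 over 16 sites on the + strand and 0.510 against 0.263 over 20 sites on the - strand, at a median depth of 13 and 8 reads. Over its sites with 10 or more reads in both libraries, its difference was 0.328, past the limit of 0.2.

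TSPEAR, a gene of the inner ear and of teeth and hair, had 0.516 against 0.530, with 0.476 against 0.621 upstream and 0.674 against 0.173 over 11 sites downstream. TAFA2, a secreted chemokine-like protein, had 0.504 against 0.528 over 40 sites. TP53I3, a quinone oxidoreductase induced by p53, had 0.538 against 0.491.

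Gene groups were described next by lists of symbols, of which the members measured here are given. Over all 15786 promoters the levels had medians of 0.0382 in SKNO-1 and 0.0714 in SKNO1-siAE, and the median difference was -0.00303. Of the 93 germline genes listed, many of whose promoters are silenced by methylation in somatic cells, 50 were measured members. They had medians of 0.877 in SKNO-1 and 0.931 in SKNO1-siAE, and 31 of 50 (62.0%) were methylated in both libraries, against 13.1% of all members. In 2 (4%) the promoter was unmethylated in both, against 52.3% of all members. The difference was called in 6 members (12%) lower in SKNO-1 and in 1 (2%) higher, near the 13.5% and 3.14% of all members, with a median difference of -0.0221. TDRD12, of the piRNA pathway, was methylated in both, at 0.986 and 0.994. HORMAD1, a protein of the meiotic chromosome axis, was lower in SKNO-1 at 0.00292 against 0.960, and all 70 of its sites were lower. PRSS21, a testis protease, was lower as well, at 0.0385 against 0.907.

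DMC1, the meiotic recombinase, was the germline gene called higher, at 0.310 against 0.0220. Its pooled reads gave 0.144 against 0.0344, a difference of 0.110 with a Newcombe interval of 0.0812 to 0.137, so it was under 0.2 with pooled reads, and it was 0.186 in the interval from -250 to +250 bp.

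Of the 101 myeloid and granulocyte genes listed, 8 were measured members. In 5 (62.5%) the level was lower in SKNO-1, against 13.5% of all members, and in 0 it was higher, against 3.14%. The median was 0.0876 against 0.880, a median difference of -0.392. ALOX5, the 5-lipoxygenase of leukotriene synthesis, had 0.00321 in SKNO-1 and 0.947 in SKNO1-siAE, with 2 of 483 and 683 of 712 reads methylated. CD14, the lipopolysaccharide co-receptor of monocytes, had 0.401 against 0.882. CTSZ, a lysosomal cathepsin, had 0.0104 against 0.467, and VCAN, the proteoglycan versican, 0.656 against 0.983.

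The 3 other myeloid members were not called. CYBA, a subunit of the phagocyte NADPH oxidase, and PLAUR, the urokinase receptor, were unmethylated in both. TLR2, a receptor of bacterial lipoproteins, had 0.935 against 0.951. TLR2 had 160 reads in SKNO-1 and 419 in SKNO1-siAE, all on the + strand. The list has few members here, and 98 of its genes have an autosomal promoter of any class, so the count says nothing of the others.

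Of the 68 stem and progenitor genes listed, 11 were measured members, 4 of them (36.4%) lower in SKNO-1, against 13.5% of all members, and 0 higher, against 3.14%, with a median of 0.451 against 0.789 and a median difference of -0.0891. CD200, a surface ligand that restrains myeloid cells, had 0.00749 against 0.932. CD38, a surface ADP-ribosyl cyclase, had 0.0342 against 0.789, and THY1, a surface glycoprotein of early progenitors, 0.451 against 0.953. GATA2, a transcription factor of haematopoietic stem cells, had 0.620 against 0.993.

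CD34, the sialomucin of haematopoietic progenitors, was methylated in both, at 0.981 and 0.948. GFI1B, a transcription factor of the erythroid and megakaryocyte lineages, had 0.273 against 0.0971, which is under the limit of 0.2. The 6 lymphoid members had medians of 0.674 and 0.630 and a median difference of -0.00575. Of these, 3 (50%) were methylated in both, against 13.1% of all members, among them CR2, the complement receptor of B cells, at 0.959 and 0.975. The difference was called in 0 that were lower and 1 that was higher in SKNO-1, against 13.5% and 3.14% of all members. The one called was BCL11B, a transcription factor of T cells, at 0.411 against 0 over 19 sites, 18 on the + strand and 1 on the - strand. Its 0 of 283 reads in SKNO1-siAE would allow a level of up to 0.0106 if the reads of all sites were independent.

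Of the 17 interferon response members, 10 (58.8%) were unmethylated in both, near the 52.3% of all members, and 3 (17.6%) were lower in SKNO-1, near the 13.5% of all members, with medians of 0.00711 and 0.0161 and a median difference of -0.0110. GBP4, a guanylate-binding protein, had 0.116 against 0.944. EPSTI1, an interferon-induced gene, had 0.246 against 0.874, and IRF5, a transcription factor of Toll-like receptor signalling, 0.166 against 0.447. LY6E, a surface protein that affects virus entry, had the highest level in its lower library, at 0.435 against 0.467.

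Among interleukins, chemokines and their receptors, 4 of 11 members (36.4%) were lower in SKNO-1, against 13.5% of all members, and 0 higher, against 3.14%. The medians were 0.137 and 0.626, with a median difference of -0.0352. IL15, a cytokine of natural killer and T cells, had 0.0833 against 0.970. CXCL1 had 0.154 against 0.927 and CXCL6 0.75 against 0.967, both neutrophil chemokines, while CXCL5, another one, was methylated in both at 0.964 and 0.965. The receptor IL10RA had 0.137 against 0.626 over only 5 sites.

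Of the 21 members with a CD symbol, 5 (23.8%) were lower in SKNO-1, against 13.5% of all members, and 0 were higher, against 3.14%, with medians of 0.158 and 0.667 and a median difference of -0.0770. CD44, the hyaluronan receptor, had 0.0109 in SKNO-1 and 0.979 in SKNO1-siAE, with 17 of 1738 and 1499 of 1532 reads methylated, and all 83 of its sites were lower in SKNO-1. CD70, the ligand of CD27, had 0.158 against 0.949. The other 3 were CD200, CD38 and CD14, described above, so these lists are not independent of each other.

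The 248 members with a ZNF symbol, the largest list, went both ways. In 23 (9.27%) the level was higher in SKNO-1, against 3.14% of all members, and in 41 (16.5%) it was lower, near the 13.5% of all members. At 0.5 these were 15 (6.05%) and 27 (10.9%), against 1.25% and 6.57%. The medians were alike, at 0.0591 and 0.0573, with a median difference of -0.000424, and 118 (47.6%) were unmethylated in both. Many of these genes lie in clusters on chromosome 19, where 18 of 155 (11.6%) were higher and 29 (18.7%) lower. On the other autosomes 5 of 93 (5.38%) were higher and 12 (12.9%) lower. The other members on chromosome 19 had 5 of 338 (1.48%) higher and 51 (15.1%) lower. ZNF433 had the largest decrease, at 0.00656 against 0.971 over 96 sites, and ZNF418 was methylated in both at 0.986 and 0.978. Zinc finger genes of a cluster are similar in sequence, and whether reads of near-identical copies were placed correctly was not tested.

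The 96 solute carrier members (SLC symbols, membrane transporters) had 24 (25%) lower in SKNO-1, against 13.5% of all members, and 0 higher, against 3.14%, with medians of 0.0406 and 0.340 and a median difference of -0.0185. In 5-Mb stretches where the libraries had even read numbers, 12.5% of 56 were lower, against 12.7% of the 3178 members there. SLC49A3 had 0.0171 against 0.976 over 82 sites, all lower. SLC25A52, of the mitochondrial carrier family, was methylated in both at 0.978 and 0.974.

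The protocadherins, cell adhesion proteins whose genes lie mostly in clusters on chromosome 5, were methylated. Of 45 members, 24 (53.3%) were methylated in both and 0 were unmethylated in both, with medians of 0.840 and 0.919 and a median difference of -0.0764. The difference was called in 5 (11.1%) that were lower and 2 (4.44%) that were higher, near the 13.5% and 3.14% of all members. PCDHGC3 had 0.00569 in SKNO-1 and 0.967 in SKNO1-siAE, and all 69 of its sites were lower in SKNO-1. PCDHGA10, of the same cluster, went the other way, at 0.582 against 0.0136, and PCDHGA7 was methylated in both at 0.984 and 0.976.

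Ribosomal protein promoters served as a group of housekeeping genes. Of 32 members, 29 (90.6%) were unmethylated in both, against 52.3% of all members, and 0 were called in either direction, against 13.5% lower and 3.14% higher, with medians of 0.00429 and 0.00387 and a median difference of 0.00108. The exceptions were RPL10L, a retrogene copy of RPL10 used in testis, which was methylated at 0.899 and 0.952, and RPL31 and RPL17, which were partly methylated in both (0.309 and 0.281, and 0.122 and 0.108). Of the 5 keratin members, 1 (20%) was lower in SKNO-1, against 13.5% of all members, namely KRT81, at 0.563 against 0.831 over 13 sites, with list medians of 0.716 and 0.759 and a median difference of -0.0430. KRT7, a keratin of simple epithelia, was methylated in both at 0.921 and 0.963. Of the 3 olfactory receptor members, too few to set beside those shares, 0 were called, with medians of 0.777 and 0.928 and a median difference of -0.0891, and OR10Q1 had 0.839 against 0.928.

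Short sequence motifs were counted in the same windows. The letters searched were TATAAA starting from -40 to -20 bp on the strand of the gene, and CCAAT (the CCAAT box), GGGCGG (the GC box), TGTGGT (the core of RUNX sites), CCGGAAG (ETS factors), TGACGTCA (the cyclic AMP response element) and GCGCATGC (NRF1) on either strand anywhere in the window. None of these motifs contains another. CCGGAAG was found in 39.8% of the 2683 members unmethylated in both, in 14.7% of the 672 methylated in both, in 16.3% of the 337 lower by 0.5 and in 23.4% of the 64 higher by 0.5, against 24.6% of all promoters. GCGCATGC was found in 9.13%, 2.98%, 4.15% and 3.13% of these sets (all promoters 6.63%), and TGACGTCA in 5.52%, 1.93%, 1.78% and 4.69% (3.83%). TATAAA was found in 1.49%, 6.10%, 3.56% and 6.25% (3.76%).

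TGTGGT was found in 32.3%, 31.3%, 28.2% and 39.1% of the sets in the same order, against 31.1% of all promoters, which in the smallest set is 25 of 64. CCAAT was found in 71%, 66.8%, 58.5% and 70.3% (62.7%), and GGGCGG in 89.4%, 85.7%, 89.3% and 87.5% (82.3%). Over all members the shares were 31.6% for TGTGGT, 67.4% for CCAAT and 88.7% for GGGCGG. The median observed to expected ratio of the sets, in the same order, was 0.701, 0.662, 0.673 and 0.699. A motif match is a description of letters and not a bound site.

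A neighbouring start was another feature that the rule did not use. The windows of 740 members (14.4%) overlapped the window of another MANE Select start, 565 of them that of another member, so that such members share sites. This held for 23.8% of the members unmethylated in both, 2.68% of those methylated in both, 3.81% of those partly methylated in both, 4.15% of those lower by 0.5 and 1.56% of those higher by 0.5. Without the overlapping windows, 46.6% of 4389 members were unmethylated in both, and 149 were called higher and 652 lower.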

How the data were processed

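MCC-Seq libraries of SKNO-1 and SKNO1-siAE were analysed, 1 per cell line. Per the labels and the study's methods, the authors removed adapters, trimmed reads by quality, aligned them to hg19 with BSMAP 2.73 and took calls from unique sequences. The submitters' processing notes name cutadapt 1.4.2, while the study's methods name a Perl script for trimming. They deposited raw counts of methylated and unmethylated reads for each CpG cytosine and strand with at least 5 reads, without normalization. Removal of duplicates is not given in the sources used here. All 6115162 autosomal positions fell on a CpG of the GRCh37 assembly. Of mitochondrial reads, 0.351% and 0.378% were methylated, which is a measure of incomplete conversion.

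Levels, 95% Wilson and Newcombe intervals, states and calls were computed as defined in the results, with a minimum of 5 reads per site in each library, in python 3.11.15, numpy 2.4.6, pandas 2.3.3, scipy 1.17.1 and matplotlib 3.10.9. Intervals rest on pooled reads, and a count of 0 was given a limit of 3 counts, which takes the reads of all sites as independent. The calling was run on simulated data in which reads were drawn independently at each site. Real read pairs can cover several sites, so that run does not show how often a call is false.

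The members and gene lists were chosen with earlier results of these data known. Among the 4927 members with at least 10 sites and 100 reads in each library, the text names the 6 largest differences in each direction, the 4 closest to 0.5 in both libraries, UBXN8 and, in each of the 13 lists, the largest called difference in each direction and the highest level in the lower library. Other list members, and the exceptions among ribosomal protein genes, were named after their values were seen. Some promoters and sequences that these rules select are not reported here. The alternatives tried were at least 10 reads, merged strands, pooled reads, separate site sets, other windows, site minimums, class rules, intervals and thresholds, windows without overlap and 5-Mb stretches with even read numbers (log2 ratio within 0.15). Of these, the settings for GC content and for gene lists were added after seeing the data.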

Additional observations from a re-analysis of the deposited data

How the results depend on the processing

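No called value and no count changed direction under the alternatives run. Of the named promoters that were not called, MECOM, TAFA2, TSPEAR, TP53I3, TLR2, CR2, KRT7, CXCL5 and OR10Q1 changed sign under at least 1 alternative, for example TAFA2 from -0.0238 to 0.0852 with each library's own sites and OR10Q1 from -0.0891 to 0.0211 from -250 to +250 bp. Of 58 alternatives of the values over all members, 37 stayed close to the main value (for the mean difference, no farther from it than the middle of its Newcombe interval is from an end, for the share unmethylated within its 95% interval, and for a count within 1.5 times) and 21 moved. The mean difference of -0.0662 stayed negative under all 9 alternatives. It was -0.0598 with at least 10 reads, -0.0649 with pooled reads, -0.0682 with merged strands, -0.0691 with each library's own sites, -0.0645 from -250 to +250 bp, -0.0651 with at least 10 sites, -0.0738 without overlapping windows and -0.0628 in 5-Mb stretches with even reads. With the class set from sliding windows of 500 bp, which left 1879 members, it was -0.0881. There 73 members were called higher (3.89%) and 337 lower (17.9%), with 20 and 142 at 0.5. In stretches with even reads, which left 3178 members, 105 were higher (3.30%) and 404 lower (12.7%), with 38 and 199 at 0.5. The share unmethylated in both (52.3%) was 50.5% with pooled reads, 60.9% from -250 to +250 bp, 28.6% with sliding windows and 46.6% without overlapping windows. Counting the median site depth as the number of molecules gave 111 higher and 488 lower, against 161 and 691.

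Of 205 alternative values of the 42 named promoters, 142 differed from the main difference by no more than the distance from the middle to an end of its Newcombe interval. Of the 127 values of the 26 called promoters, 125 stayed at 0.2 or more, and the other 2 were those of DMC1. No paired analysis was possible because each group is 1 library, and leaving out a replicate could not be run for the same reason. At a median depth per site of 16 and 15 reads, single sites are imprecise, and intervals of pooled reads cover counting error only. The 272 unmeasured members are not described.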

Other observations

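A cluster of zinc finger genes on chromosome 19 was looked at after its values were seen. Its 20 ZNF members, with starts from 11849761 to 12721734 in hg19, did not share a state. In 8 the level was lower in SKNO-1, in 1 it was higher, and 6 were unmethylated in both libraries, while of all members 13.5% were lower, 3.14% higher and 52.3% unmethylated in both. Promoters that were lower lay next to promoters that were not. ZNF700 was unmethylated in both, the next member ZNF763 had 0.00576 in SKNO-1 against 0.965 in SKNO1-siAE, and ZNF433 after it 0.00656 against 0.971. ZNF844 was methylated in both, at 0.932 and 0.987. ZNF20 had 0.966 against 0.0184, and its neighbour ZNF625 0.943 against 0.938. Farther on, ZNF443 was unmethylated in both, and ZNF709 had 0.00201 against 0.940. Of the 14 other members with starts from 11529990 to 12992263, 0 were called and 11 were unmethylated in both.

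By chromosome, the share of members called lower in SKNO-1 was highest on chromosome 4, with 42 of 197 (21.3%), against 13.5% of all members. There the median log2 ratio of reads of SKNO-1 to SKNO1-siAE was -0.48. The share was 12 of 66 (18.2%) on chromosome 13, with a ratio of -0.60, and 6 of 54 (11.1%) on chromosome 18, with -0.68. On chromosome 9, with -0.35, it was 15 of 168 (8.93%). On chromosome 15, with 0.79, it was 21 of 171 (12.3%), and on chromosome 5, with 0.33, 37 of 283 (13.1%). The lowest share was on chromosome 12, with 26 of 329 (7.90%) and a ratio of 0.09. The part of read numbers in these shares was not tested.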
